A study of Homo sapiens with 8 samples.

Results

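The E2F family was followed as 10 genes: the 8 E2F transcription factors E2F1 to E2F8 and the genes of their dimerization partners, TFDP1 and TFDP2. The members were found by gene identifier, and all 10 were listed in both tables, among 25431 genes in 769-P and 24190 genes in CAKI-1. RNA sequencing (RNA-seq) was done on 769-P and CAKI-1, both established human renal cell carcinoma (RCC) lines that GEO's labels describe as clear cell carcinoma. Each line had 2 libraries from cells supplied with branched-chain amino acids (BCAAs) for 16 h and 2 from cells kept for the same time without them. The supply was 0.17 mM valine, with leucine and isoleucine each at 0.38 mM. Before treatment, 769-P cells grew in RPMI medium and CAKI-1 cells in MEM. The depleted medium of the study was made from amino acid-free RPMI powder with dialyzed serum, and no library came from untreated cells in full growth medium.

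E2F factors bind DNA at the promoters of genes for S phase and mitosis, mostly as dimers with a DP protein. The classical activators, E2F1 to E2F3, are held by the retinoblastoma protein until cyclin-dependent kinases phosphorylate it. E2F4 and E2F5 act with the related pocket proteins p130 and p107, in part within the DREAM complex of quiescent cells, E2F6 recruits Polycomb proteins without a pocket protein, and E2F7 and E2F8 are atypical repressors that bind DNA without DP and shut off E2F targets late in S phase. E2F1, E2F2, E2F7 and E2F8 are themselves known E2F targets. The comparisons addressed which of these genes changed with BCAA supply in each line, and whether the lines differed.

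BCAA supply was accompanied by higher E2F1, E2F2, E2F3, E2F8 and TFDP1 in both lines. The largest changes were in E2F2, 6.84-fold in 769-P and 7.92-fold in CAKI-1, and in E2F8, 5.28-fold and 5.69-fold. The atypical members parted in 769-P, where E2F7 fell to 0.559 of its level without BCAA while E2F8 rose. The 3 repressors, E2F4 to E2F6, moved by at most 0.37 on the log2 scale in either line. E2F1, E2F7 and TFDP2 differed in their BCAA effect between the lines.

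In 769-P, 5 of 10 members were called higher and 2 lower (E2F7 and TFDP2), while 3 were not called. Across all tested genes of this line, 20.3% were called higher and 18.2% lower, 38.4% in all. In CAKI-1, 6 members were called higher and 1 lower (E2F5), against 10.8% and 9.05% of all tested genes (19.9% in all), and E2F6, E2F7 and TFDP2 were not called. A call is an adjusted p under 0.05 in limma with Benjamini-Hochberg adjustment over all tested genes, with no minimum fold. With a minimum of 2-fold added, the members called higher were 3 in each line, E2F1, E2F2 and E2F8, where 4.42% of all genes in 769-P and 1.42% in CAKI-1 met both criteria, while E2F7, TFDP2 and E2F5 fell short of it. Both libraries with BCAA lay above both without for 7 members in 769-P and below for 3, where 33.6% and 33.5% of all genes did so. In CAKI-1 this held for 6 members above and 1 below (28.9% and 28.8% of all genes), and 3 overlapped. All 10 members passed the filter on low values in both lines, through both conditions for every member. The calls rest on 2 libraries a group that the labels do not say came from separate cultures, so p-values measure only the spread between these libraries, which may be technical. Without any 1 of the 4 CAKI-1 libraries limma called 0 genes in that line, with 4 to 7 members at an unadjusted p under 0.05, whereas with the spread taken from all other libraries of both lines the same test called 6 members higher each time.

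**Figure D1:**
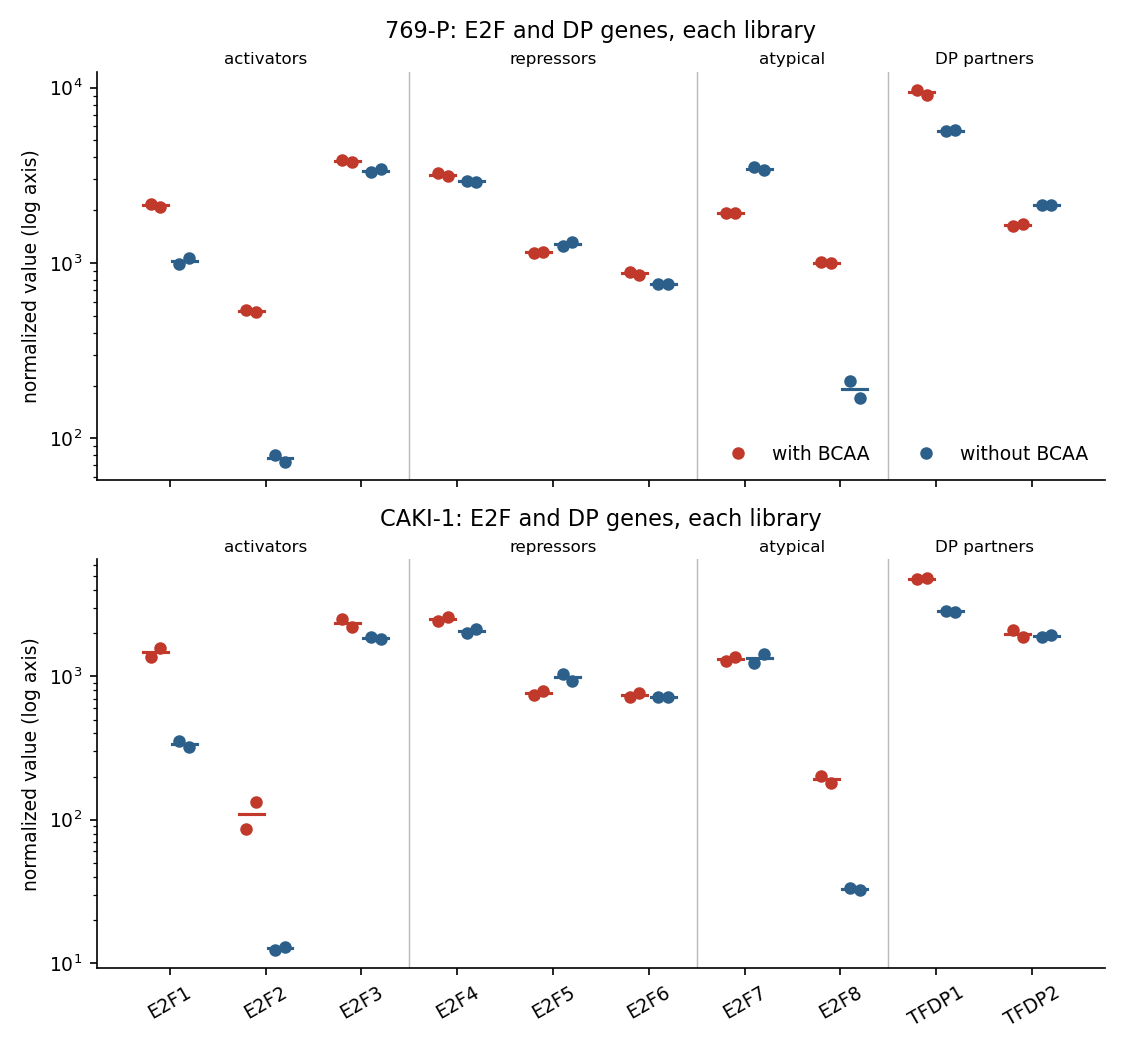
Normalized value (reads divided by the library's size factor, log axis) of each E2F and DP gene in each library, with the group mean as a short line, for 769-P (top) and CAKI-1 (bottom). E2F1, E2F2, E2F8 and TFDP1 sit higher with BCAA (red) than without (blue) in both lines, and E2F7 sits lower with BCAA in 769-P and overlaps in CAKI-1.

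The libraries held 30979773 to 64256834 reads in genes. In 769-P depth went with condition, at 64256834 and 55829324 reads where BCAA was supplied and 39062721 and 40130258 where it was not. When the reads of every library were thinned to 30979773, a step added after the first results were seen, the same 7 members were called in 769-P and the same 7 in CAKI-1. Both lines expressed PAX8, a renal lineage factor, at 8700.3 or more in every library, whereas CA9, a clear cell carcinoma marker, was not listed in either table and PAX2 was not listed in CAKI-1. Of 9 renal markers listed in 769-P, 3 were called higher with BCAA and 3 lower (20.3% and 18.2% of all genes). PAX8 was among the lower ones (-0.64). The summed value of the 9 was 146498 to 150336 with BCAA and 146477 to 148242 without. In CAKI-1 1 of 8 was called higher and 2 lower (10.8% and 9.05% of all genes), VIM among the latter (-0.65). The sum there was 87804 to 91437 with BCAA and 124265 to 128346 without. Most of it was VIM, at 64620 and 65548 with BCAA and 104102 and 100173 without. Of 5 leukocyte markers 3 were listed in each line. Their summed value in 769-P was 310.4 to 379 with BCAA and 246 to 284 without, nearly all of it ITGAM, and in CAKI-1 34.9 to 43.8 and 35.2 to 45.0, while the defining markers PTPRC and CD3E were not listed or at 4.55 or less. The 4 endothelial markers summed to at most 10.3 in any library, and CDH5 was not listed. Of 5 fibroblast and smooth muscle markers, 2 were called higher with BCAA in each line (20.3% of all genes in 769-P and 10.8% in CAKI-1). Their summed value was 122543 to 147365 with BCAA and 100107 to 117857 without in CAKI-1, nearly all of it COL1A1. The part of these markers in the E2F results was not tested.

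Sequence around the start sites is shown for the 4 members that held a match to an E2F core and for E2F7. Like E2F4, E2F6 and TFDP2, E2F7 held none. E2F sites are commonly written as an 8-base core, and 4 spellings were searched on both strands: TTTCCCGC, TTTCGCGC, TTTGCCGC and TTTGGCGC, where a TTTGGCGC match can share its last bases with a match on the other strand. The searched promoters were RefSeq stretches of 300 bases on GRCh38.p14, 250 before and 50 after the start. Of 35116 such stretches, 1164 (3.31%) held at least 1 of the 4 spellings. An entry existed for 8 members, and 4 of these held a match: E2F1, E2F2, E2F3 and TFDP1. The entries of E2F4, E2F6, E2F7 and TFDP2 held none of these letters, which says nothing of binding there. E2F5 and E2F8 were not searched. The 60-base windows below run 5′ to 3′ on the gene's strand, from position -70 to -11 relative to the start (-150 to -91 for TFDP1), with matches in capitals, and in E2F1 the last bases of the window already lie in the first exon of the GENCODE annotation.
E2F1, chr20:33686396-33686455, minus strand: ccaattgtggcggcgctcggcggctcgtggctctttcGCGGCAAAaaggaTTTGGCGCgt
E2F2, chr1:23531244-23531303, minus strand: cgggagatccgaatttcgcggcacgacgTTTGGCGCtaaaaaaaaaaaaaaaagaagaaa
E2F3, chr6:20401809-20401868, plus strand: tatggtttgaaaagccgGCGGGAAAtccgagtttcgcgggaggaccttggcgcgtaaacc
TFDP1, chr13:113584603-113584662, plus strand: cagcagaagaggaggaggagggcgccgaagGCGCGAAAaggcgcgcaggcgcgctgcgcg
E2F7, chr12:77065580-77065639, minus strand: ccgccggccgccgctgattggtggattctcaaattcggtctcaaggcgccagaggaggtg

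The matches began at positions -33 and -20 in E2F1, -42 in E2F2, -53 in E2F3 and -120 in TFDP1. E2F1 was the only member with 2 matches, and its second match has the same spelling as that of E2F2. E2F3 had 2 promoter entries, of which only the upstream one held a match. The 4 members with a match were all called higher with BCAA in both lines. Of the members without a match, E2F4 was called higher in CAKI-1, E2F6 was not called, and E2F7 and TFDP2 were called lower in 769-P. E2F8, which rose in both lines, was not searched. A match is a description of letters, not a site shown to be used, and its link to the BCAA effect was not tested.

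E2F1, the activator most closely tied to release from the retinoblastoma protein, lies at chr20:33675683-33686404 on GRCh38. In 769-P its normalized values were 2175 and 2086 with BCAA and 989 and 1072 without. In CAKI-1 they were 1379 and 1573 with BCAA and 353 and 323 without. The groups did not overlap in either line, and the 2 libraries of each group lay close together. The log2 fold change (with over without BCAA, on the log2(value + 1) scale) was 1.05 in 769-P (SE 0.07, adjusted p = 1.7e-07, limma) and 2.12 in CAKI-1 (SE 0.10, adjusted p = 3.2e-07). The increase was therefore larger in CAKI-1, and the difference between the lines was -1.07 (95% interval -1.34 to -0.81, adjusted p = 3.8e-05 for the interaction in limma). Fewer cycling cells and less E2F RNA per cell cannot be told apart in bulk RNA, for E2F1 or for any member described here.

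E2F2, an activator expressed mainly in proliferating cells, lies at chr1:23506430-23531220. It was the lowest member per kilobase of transcript in every group and the member with the largest fold change. Its values in 769-P were 537 and 528 with BCAA and 80.7 and 73.4 without, the latter from 65 and 60 reads. In CAKI-1 they were 85.6 and 133 with BCAA and 12.4 and 12.9 without, the latter from 13 and 10 reads, and the 2 libraries with BCAA differed by a larger factor than for any other activator. The log2 fold change was 2.77 (SE 0.15, adjusted p = 2.8e-08, limma) in 769-P. In CAKI-1 it was 2.99 (SE 0.35, adjusted p = 1.6e-04, limma), with an interval from 2.22 to 3.75. By size, E2F2 ranked 6 of the 2312 genes called higher in CAKI-1 and 63 of 4536 in 769-P. A fold change on this scale understates the change of low genes, which touches E2F2 in CAKI-1 most.

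E2F3, which encodes a long and a short activator isoform that gene-level values do not separate, changed little. Its values in 769-P were 3848 and 3763 with BCAA and 3285 and 3414 without, and those in CAKI-1 were 2528 and 2226 with and 1876 and 1835 without. The groups did not overlap, yet the log2 fold changes were only 0.18 in 769-P (SE 0.05, adjusted p = 0.013, limma) and 0.35 in CAKI-1 (SE 0.08, adjusted p = 0.0066, limma). The call in 769-P was lost without any 1 of its 4 libraries, with adjusted p between 0.092 and 0.14.

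**Figure D2:**
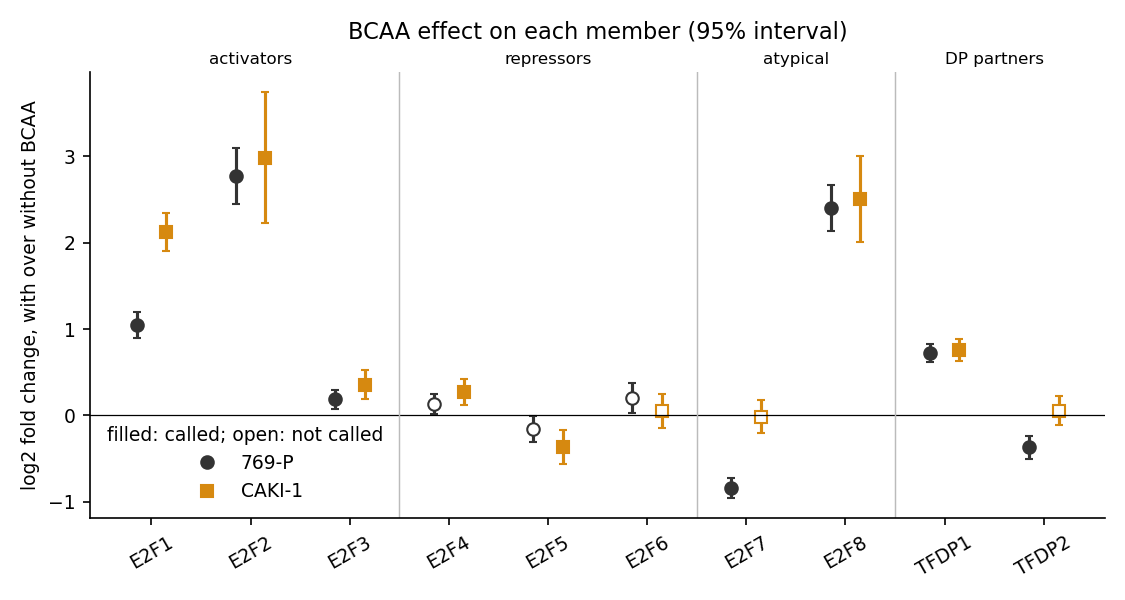
Log2 fold change, with over without BCAA, of each member in 769-P (circles) and CAKI-1 (squares), with 95% intervals from limma. Filled symbols passed the adjusted threshold; E2F1, E2F2 and E2F8 lie at 1.05 or above in both lines, and the repressors lie between -0.37 and 0.27.

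E2F4, the main E2F of quiescent cells and of the DREAM complex, lies at chr16:67192169-67198918. It measured 3251 and 3122 with BCAA and 2939 and 2889.7 without in 769-P, a log2 fold change of 0.13 that missed the threshold (adjusted p = 0.078, limma). In CAKI-1 it measured 2432 and 2594 with BCAA and 2023 and 2144 without, and the rise of 0.27 was called (SE 0.07, adjusted p = 0.017, limma). The effect did not differ detectably between the lines (difference -0.14, 95% interval -0.32 to 0.04).

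E2F5, the p130-binding repressor, was the member of this class that was lower with BCAA. In CAKI-1 it measured 740.3 and 795 with BCAA and 1044 and 937 without, a fall of 0.37 on the log2 scale (SE 0.09, adjusted p = 0.015, limma). In 769-P the values were 1143 and 1159.5 with BCAA and 1255 and 1323 without, and a log2 fold change of -0.16 did not pass (adjusted p = 0.086, limma). The 969 bases that E2F5 exons share with C8orf59 on the opposite strand are 16.3% of its exon length, and since counting by strand is not stated, reads of the 2 genes cannot be told apart there.

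E2F6, the Polycomb-associated member, gave no call in either line. It measured 886 and 856 with BCAA and 754 and 761 without in 769-P (log2 fold change 0.20, adjusted p = 0.063, limma). In CAKI-1 the groups overlapped, with 715 and 771 against 721 and 714 (log2 fold change 0.05, 95% interval -0.15 to 0.25). In 769-P each repressor sat near the threshold: E2F6 was called after median centring (adjusted p = 0.041, limma) and with edgeR on reads recovered from the table (0.042), E2F4 with edgeR (0.037) and E2F5 after quantile normalization (0.035).

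E2F7 and E2F8 encode closely related atypical repressors with 2 DNA-binding domains each, and their transcripts did not move together in 769-P. E2F7, at chr12:77021247-77065580, measured 1927 and 1933 with BCAA in 769-P and 3503 and 3401 without. E2F8, at chr11:19224063-19241620, measured 1016 and 995 with BCAA and 211 and 170.0 without in the same libraries. E2F7 was thus lower and E2F8 higher with BCAA, each without overlap. The log2 fold change was -0.84 for E2F7 (SE 0.05, adjusted p = 1.6e-07, limma). For E2F8 it was 2.40 (SE 0.12, adjusted p = 1.7e-08, limma).

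In CAKI-1 the E2F7 groups overlapped, at 1280.3 and 1361 with BCAA and 1235 and 1439 without, and its log2 fold change was -0.01 (95% interval -0.21 to 0.18). After median centring it was 0.03. E2F8 measured 201 and 181 with BCAA and 33.3 and 32.2 without, the latter from 35 and 25 reads, and rose by 2.51 (SE 0.23, adjusted p = 2.8e-05, limma). The E2F7 effect differed between the lines by -0.82 (95% interval -1.05 to -0.60, adjusted p = 9.3e-05, interaction in limma). For E2F8 no difference was detectable, with an interval from -0.61 to 0.40.

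Per kilobase of exon, E2F7 exceeded E2F8 in all 8 libraries, by very different margins. In 769-P the ratio of E2F7 to E2F8 was 1.25 and 1.28 with BCAA and 10.9 and 13.1 without. In CAKI-1 it was 4.18 and 4.95 with BCAA and 24.4 and 29.4 without. The groups did not overlap in either line, and no test was run on ratios, since 2 against 2 libraries cannot give an exact permutation p under 0.333.

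TFDP1, which encodes DP1, the main partner of E2F1 to E2F6, was the highest member per kilobase in every group. It measured 9664 and 9107 with BCAA and 5653 and 5713 without in 769-P. In CAKI-1 it measured 4787 and 4878 with BCAA and 2879 and 2834 without. The groups stood well apart, with log2 fold changes of 0.72 in 769-P (SE 0.05, adjusted p = 1.6e-07, limma) and 0.76 in CAKI-1 (SE 0.06, adjusted p = 8.5e-06, limma). The difference between the lines was -0.04 with an interval from -0.19 to 0.12, the narrowest interval of the 10 members.

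TFDP2, which encodes the alternative partner DP2, did not follow TFDP1. In 769-P it measured 1634 and 1671 with BCAA and 2145 and 2130.3 without, a fall of 0.37 on the log2 scale (SE 0.06, adjusted p = 2.8e-04, limma). This call was lost without either library lacking BCAA (adjusted p = 0.059 without replicate 1 and 0.056 without replicate 2). In CAKI-1 the groups overlapped, at 2108 and 1879.7 with BCAA and 1882 and 1955 without. The effect differed between the lines by -0.43 (95% interval -0.63 to -0.22, adjusted p = 0.0056, interaction in limma). Per kilobase, TFDP1 exceeded TFDP2 by 18.8 and 17.3 times with BCAA and 8.38 and 8.53 times without in 769-P, and by 7.22 and 8.25 against 4.87 and 4.61 times in CAKI-1.

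The class comparison therefore ran as follows. All 3 activators were called higher in both lines (20.3% of all genes in 769-P and 10.8% in CAKI-1). Their median log2 fold change, which is the value of E2F1, was 1.05 in 769-P and 2.12 in CAKI-1. E2F3 rose by only 0.18 and 0.35. The median of all tested genes was -0.02 and -0.01. Of the 3 repressors, none was called in 769-P with limma, although all 3 had an unadjusted p under 0.05, edgeR called 2 (E2F4 and E2F6) and DESeq2 called 0. In CAKI-1 E2F4 was called higher and E2F5 lower. Each of the other classes held 1 member that rose in both lines, E2F8 and TFDP1, and 1 that was lower in 769-P and not called in CAKI-1, E2F7 and TFDP2. Of the 10 members, 3 differed between the lines, beside 21.1% of the 19406 genes tested in both.

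The order of the members by value per kilobase changed with BCAA. TFDP1 and E2F4 ranked 1 and 2 in all 4 groups. E2F1 ranked 3 with BCAA in both lines, at 851 ± 25.3 in 769-P and 590 ± 54.8 in CAKI-1 (SD, n = 2), below E2F4 at 889.6 ± 25.5 and 702 ± 31.9. How close they stood depended on the length used. With the longest transcript E2F1 also ranked 3, at 851 and 590, while E2F4 stood at 1219 and 961. The other levels here are per kilobase of exon. Without BCAA it ranked 5 in 769-P (412 ± 23.7), behind E2F3 and E2F7, and 8 in CAKI-1 (135 ± 8.36). E2F8 and E2F2 were the last pair without BCAA in both lines, at 46.0 and 14.1 in 769-P and 7.90 and 2.31 in CAKI-1. Neighbours in the order were separated in every library of 769-P, whereas in CAKI-1 E2F6 overlapped TFDP2 with BCAA, and E2F5 overlapped both E2F6 and TFDP2 without. The 2 tables were scaled separately, so levels are not compared between lines.

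The make-up of the E2F pool, summed over the 8 E2F genes per kilobase of exon, moved toward the activators with BCAA. Most of this came from E2F1, at 851 with BCAA and 412 without in 769-P and 590 and 135 in CAKI-1. E2F3 stood at 737 and 649 and at 460 and 359, and E2F2 at 97.6 and 14.1 and at 20.0 and 2.31. Activators made up 47.8% and 47.6% of the sum with BCAA in 769-P and 36.4% and 38.0% without. In CAKI-1 they made up 46.2% and 45.3% with BCAA and 31.1% and 29.4% without. The atypical pair took 15.4% and 15.7% with BCAA and 21.1% and 20.0% without in 769-P, where E2F7 supplied most of it, and 11.0% and 10.9% against 12.5% and 14.3% in CAKI-1. Activators exceeded repressors 1.30-fold and 1.30-fold with BCAA in 769-P and stood at 0.859 and 0.906 of them without. In CAKI-1 the ratio was 1.08 and 1.03 with BCAA and 0.552 and 0.522 without. Whether activators exceeded repressors with BCAA in CAKI-1 depended on the length used, since the longest transcript gave a mean ratio of 0.837 there, but the direction of the BCAA effect was the same with either length.

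**Figure D3:**
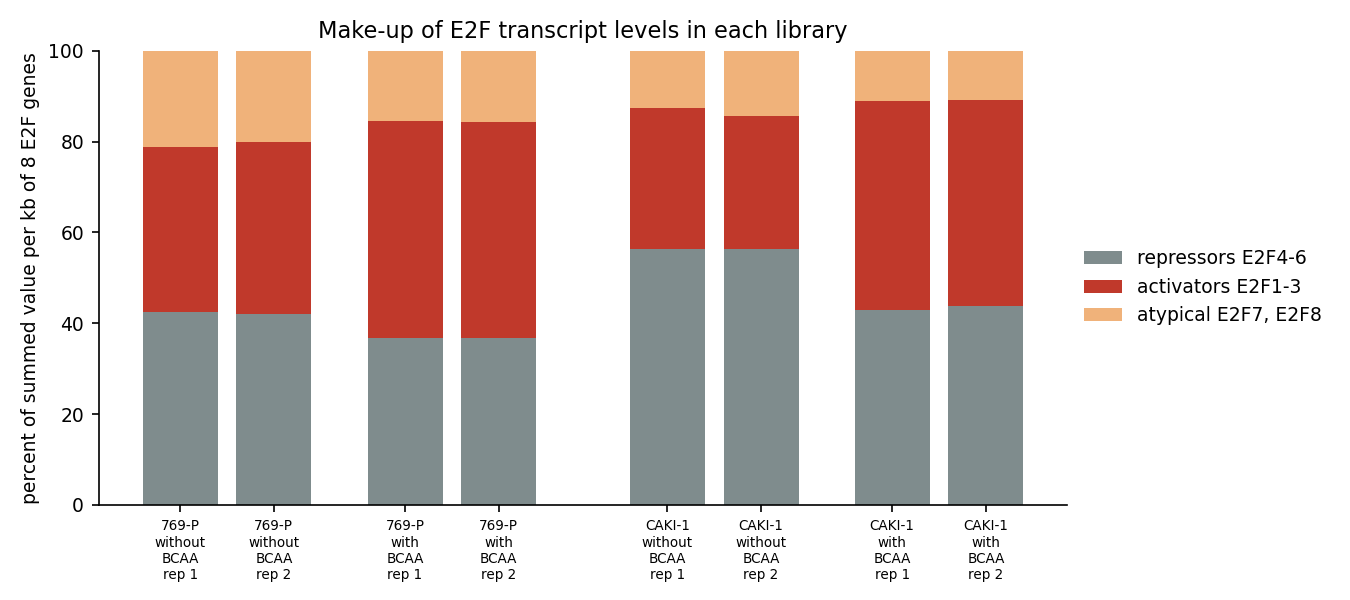
Share of the summed value per kilobase of exon over the 8 E2F genes taken by repressors, activators and atypical members in each library (stacked bars, percent, from 0 to 100). Activators take 45.3% to 47.8% in the libraries with BCAA and 29.4% to 38.0% in those without.

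The nearest list held the pocket proteins and the MuvB core, which hold E2F factors or join them in DREAM. It also held the partners MYBL1, MYBL2 and FOXM1. These partners were called higher in both lines and are counted among the calls that follow. Of 11 tested genes, 7 were called higher and 1 lower in 769-P (median log2 fold change 0.52), beside 20.3% and 18.2% of all genes. In CAKI-1, 8 were called higher and 1 lower (median 0.51), beside 10.8% and 9.05% of all genes. The leaders were MYBL2, the Myb factor that replaces DREAM on MuvB in S phase, at 1.55 and 2.57, and FOXM1, the mitotic transcription factor, at 1.36 and 1.30 in 769-P and CAKI-1, all called. RBL1 (p107) rose by 0.57 in 769-P and by 0.72 in CAKI-1. RB1 was not called in 769-P (-0.05) and rose by 0.29 in CAKI-1. RBL2 (p130), the pocket protein of quiescent cells, stood at 0.01 in 769-P without a call and fell by 0.25 in CAKI-1. The effect on MYBL2 was larger in CAKI-1, as for E2F1 (difference -1.02, adjusted p = 1.7e-06, interaction in limma).

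Among the MuvB subunits, LIN9 rose in both lines (0.57 in 769-P and 0.38 in CAKI-1), and so did RBBP4 (0.59 and 0.21). LIN52 was called in 769-P (0.52) and not in CAKI-1 (0.51, adjusted p = 0.092, limma), and LIN54 was called in CAKI-1 (0.65) and not in 769-P (0.12). LIN37, measured at 53.3 to 135 in all libraries, fell by 0.72 in 769-P, a call lost with DESeq2, after quantile normalization, without the filter on low values, with thinned reads and without any 1 of the 4 libraries, and was not called in CAKI-1 (-0.12). MYBL1, the A-Myb gene, rose by 0.33 in 769-P and 0.52 in CAKI-1.

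Of the kinases, cyclins and inhibitors that act on pocket proteins, 6 of 14 tested genes were called higher and 2 lower in 769-P. In CAKI-1, 6 of 12 were higher and 1 lower. Of all tested genes, 20.3% were called higher and 18.2% lower in 769-P, and 10.8% and 9.05% in CAKI-1. CCNE2, a cyclin E gene and E2F target, rose by 1.61 in 769-P and by 1.94 in CAKI-1, and CDK2, its kinase, rose by 0.89 and 1.18. CDKN2C, which encodes the CDK4 and CDK6 inhibitor p18, had the largest rise of the list in 769-P at 2.60 and rose by 0.78 in CAKI-1. The D-type cyclins, upstream of pocket protein phosphorylation, parted: CCND1 fell by 0.81 in 769-P and was not called in CAKI-1 (0.01), while CCND3 rose by 1.55 and 1.05 in the lines. CDKN1A (p21) fell by 0.51 in 769-P and by 0.51 in CAKI-1. CDKN2A and CDKN2B, which encode p16 and p15, were not listed in CAKI-1, and CCND2 was not listed in 769-P.

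Of 8 genes for E2F protein turnover and checkpoint control, 6 were called higher and 1 lower in 769-P (20.3% and 18.2% of all genes). In CAKI-1, 5 were called higher (10.8% of all genes) and 3 were not called. CCNA2 (cyclin A2), which ends E2F1 DNA binding in S phase, rose by 2.11 in 769-P and by 1.86 in CAKI-1. CCNF (cyclin F), of the ubiquitin ligase that targets E2F proteins, rose by 1.70 and 1.28, and SKP2, an E2F1-binding ligase subunit, rose by 1.47 and 1.32. MDM2 fell by 0.16 in 769-P, the list's only lower call, which was lost without any 1 of the 4 libraries, after median centring, without the filter on low values and with the spread of all 8 libraries.

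Of 10 tested partners of E2F6 in its Polycomb complex, 6 were called higher and 3 lower in 769-P (20.3% and 18.2% of all genes). In CAKI-1, 2 partners were called higher (10.8% of all genes). Without any 1 of the 4 libraries of 769-P only 0 to 1 were called higher and 0 to 1 lower, and 3 to 4 higher and 3 lower with the spread of all other libraries. Quantile normalization left 3 higher in 769-P and 0 in CAKI-1. PCGF6 rose by 0.45 and 0.29 in the lines, CBX3 by 0.33 in 769-P and WDR5 by 0.19 and 0.29, while MGA and MAX, the DNA-binding pair of that complex, fell by 0.42 and 0.34 in 769-P. Of 10 germline genes known to be silenced by E2F6, 4 were tested in each line, and only STAG3 in 769-P was called (0.71), near the share of all genes called higher there. That call was lost with DESeq2, a pseudocount of 0.1, no filter, quantile normalization, thinned reads, the spread of all 8 libraries and without any 1 of the 4 libraries.

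The 25 replication genes known as E2F targets were all called higher in both lines, with medians of 1.28 in 769-P and 1.18 in CAKI-1. Of all tested genes, 20.3% were called higher in 769-P and 10.8% in CAKI-1. RRM2, a ribonucleotide reductase subunit, rose by 2.46 in 769-P and 2.08 in CAKI-1, CLSPN, the checkpoint adaptor claspin, rose by 1.39 and 2.43, and MCM10, a replication initiation factor, rose by 2.01 and 2.38. The 20 mitotic genes of the DREAM complex were also all called higher in both lines (medians 1.57 and 1.20). AURKA and CCNB1, the mitotic kinase and cyclin, rose by 1.99 and 1.94 in 769-P and by 1.35 and 1.24 in CAKI-1. BIRC5 and MKI67 rose by 1.75 and 1.38 in 769-P and by 1.56 and 1.55 in CAKI-1. These targets are markers of cycling cells, so their rise beside E2F1, E2F2 and E2F8 does not separate a change in cell number from a change per cell. The searched core was held by 16 of 22 replication genes with a promoter entry (72.7%) and by 2 of 16 mitotic genes (12.5%), beside 3.31% of all entries. The list shares count genes, whereas the 3.31% counts promoter entries. Both lists were drawn up from known E2F or DREAM targets, so these shares are descriptions and not a test.

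Of 8 apoptosis genes known as E2F1 targets, 3 were called higher and 3 lower in 769-P (20.3% and 18.2% of all genes). In CAKI-1, 3 were higher and 2 lower (10.8% and 9.05% of all genes). APAF1, the apoptosome scaffold, rose by 0.98 in 769-P and 0.92 in CAKI-1. BBC3 (PUMA), which is also a p53 target, fell by 1.22 and by 0.40, and BCL2L11 (BIM) fell by 0.42 in CAKI-1. HRK, a BH3-only gene, was called lower in 769-P on 3 reads with BCAA and 46 without, a ratio of 0.0425 with an exact counting interval from 0.00846 to 0.132. This list thus held falling genes in both lines, unlike the replication and mitotic lists.

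**Figure D4:**
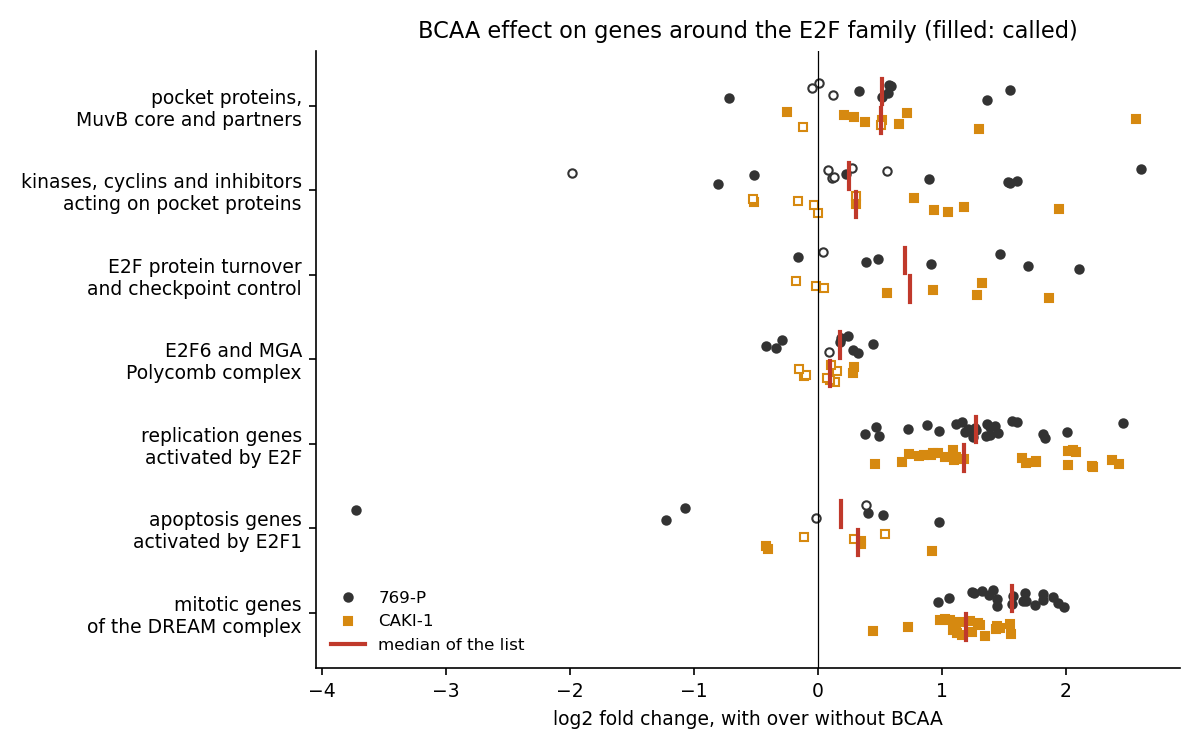
Log2 fold change, with over without BCAA, of each tested gene in 7 lists around the E2F family, for 769-P (circles) and CAKI-1 (squares), filled where called, with the median of each list as a red bar. All replication and mitotic genes lie right of 0 in both lines, and the other lists straddle 0 in at least 1 line.

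The genes whose pattern was most like that of a member were sought over the 8 libraries, with values centred within each line, among 10872 genes with a mean of at least 100 in both lines. The measure was the Euclidean distance on the log2 scale, where 0 is an identical pattern. E2F1 was nearest to CDC6 (0.393), EXO1 (0.461) and GINS2 (0.482), and E2F8 to ESCO2 (0.268), RRM2 (0.496) and MCM10 (0.526). E2F2 lay farther from all others, with ESCO2 (0.809), FAM111B (0.880) and RRM2 (1.10) nearest. E2F2 was itself below a mean of 100 in CAKI-1, at 85.6 and 133 with BCAA and 12.4 and 12.9 without. Its distances therefore include the spread of low counts. E2F7 was nearest to PDGFB (0.125), UVSSA (0.132) and DMTF1 (0.150), with log2 fold changes of -0.82, -0.83 and -0.74 in 769-P and of -0.03, 0.04 and -0.04 in CAKI-1.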

How the data were processed

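RNA-seq was done on 8 libraries, 2 for each of 769-P and CAKI-1 with and without BCAA. The authors deposited 1 table per line; per the labels and submitters' notes, reads were processed with Trim Galore, TopHat2 2.1.0, SAMtools 1.3.1, HTSeq 0.6.0, DESeq2 and DESeq on hg38. The deposited signal is reads per gene divided by 1 size factor per library: 100% of values gave whole reads (tolerance 0.0001 reads), with size factors from 0.777 to 1.32. Depth limits precision for E2F2 and E2F8 without BCAA. Symbols and lengths came from GENCODE 29.

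Groups followed the sample labels. Genes whose mean value reached 1 were tested on log2(value + 1) with limma 3.58.1 (R 4.3.3; empirical Bayes with trend, Benjamini-Hochberg adjustment, 0.05) within each line, and in 1 model over all libraries for the difference between lines. Alternatives were pseudocounts of 0.1 and 5, other filters, median centring, quantile normalization, DESeq2 1.42.0 or edgeR 4.0.16 with the recovered reads as counts, a replicate block, each library left out, and another gene length. The limma fit was tested on simulated data. Replicate numbers were not used to pair the samples in the main fit. Deviations of same-numbered libraries correlated at -0.09 in 769-P and 0.06 in CAKI-1, which cannot show whether they were cultured together. The counts of replicates differed by more than sampling noise (chi-square per degree of freedom 3.36 to 12.9). Members and lists were chosen with earlier results of these data known. Named genes were the members and every gene on the list of pocket proteins, MuvB core and partners. From the other lists, up to 2 called genes per line in each direction were named, taken by size of change. The 3 genes nearest in pattern to E2F1, E2F2, E2F7 and E2F8 were also named. Beyond that rule, CDKN2A, CDKN2B and CCND2 were named because their tables lacked them, and CCND3 and the cell type markers after their values were seen. Some named genes are not reported here.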

Additional observations from a re-analysis of the deposited data

Results flagged for a closer look

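In 17 of 49 named genes the BCAA effect differed between the lines (769-P minus CAKI-1, log2 scale, interaction in limma, adjusted p under 0.05). Many of the 49 were chosen for a large change in 1 line, so their share is not set against that of all genes. Members were E2F1 (-1.07), E2F7 (-0.82) and TFDP2 (-0.43). E2F1 was called higher in both lines, whereas E2F7 and TFDP2 were called lower in 769-P and not called in CAKI-1.

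On the list of pocket proteins, MuvB core and partners, the differences were -1.02 for MYBL2 and -0.53 for LIN54. They were -0.34 for RB1, 0.26 for RBL2 and 0.38 for RBBP4. Of the cyclins and inhibitors they were 1.82 for CDKN2C and -0.81 for CCND1. CBX3, of the E2F6 complex, differed by 0.19. Among replication genes CLSPN differed by -1.04 and RRM2 by 0.37, and among mitotic genes CCNB1 differed by 0.70 and AURKA by 0.64. Among apoptosis genes BBC3 differed by -0.82 and HRK by -4.02, the latter fitted on 1 to 7 reads in 6 of its libraries, so its size depends on the pseudocount.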

How the results depend on the processing

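With a minimum of 2-fold the members called in 769-P were 3 higher and 0 lower, and in CAKI-1 3 higher and 0 lower, by construction. The 7 members called in 769-P kept their sign whichever of its libraries was left out. Leaving out libraries lost some of their calls, and limma then called fewer of all genes there too. In CAKI-1 it gave 0 to 0 higher and 0 to 0 lower, since limma then called 0 of 21347 genes, with 4 to 7 members at an unadjusted p under 0.05 and every called member keeping its sign. With the spread taken from all other libraries of both lines, added after seeing the data, 6 members were called higher in CAKI-1 each time and 0 to 1 lower, the 0 without replicate 1 lacking BCAA, where E2F5 had an adjusted p of 0.053. Under quantile normalization E2F3 (0.055) and E2F4 (0.07) lost their call in CAKI-1. The ratio of activators to repressors with the longest transcript was 1.03 and 0.712 in 769-P with and without BCAA and 0.837 and 0.44 in CAKI-1.

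Directions that turned all belonged to differences without a call. E2F7 in CAKI-1 was 0.03 after median centring, 0.02 after thinning, and -0.12 to 0.10 without 1 library (above 0 without replicate 1 with BCAA, 0.03, or replicate 2 without it). TFDP2 there ranged from -0.03 (without replicate 1 with BCAA) to 0.14 and E2F6 from -0.01 (without replicate 2 with BCAA) to 0.10. The difference between the lines was 0.05 for E2F2 and 0 for E2F8 with a pseudocount of 5, and without 1 library it ranged from -0.08 to 0.01 for TFDP1, -0.26 to 0.05 for E2F8 and -0.53 to 0.10 for E2F2. Of the members, 3 differed between the lines in every alternative run except 1, with 4 without replicate 2 of CAKI-1 with BCAA, where E2F3 also passed (-0.26, adjusted p = 0.038). With the replicate block the counts were 5 higher and 2 lower in 769-P and 6 higher and 1 lower in CAKI-1, and no member's call changed. On the list of pocket proteins, MuvB core and partners, some genes lost their call in 769-P without 1 library. The list median there was then 0.47 to 0.51. The replication list was called higher in 25 of 25 genes under every scaling, and the mitotic list in 20 of 20 except under quantile normalization in CAKI-1 (19). With a minimum of 2-fold, 19 replication genes remained in 769-P and 17 in CAKI-1, and 19 and 17 mitotic genes. Of all genes, 4.42% in 769-P and 1.42% in CAKI-1 were called higher with that minimum. Some replication genes lost their call in 769-P without 1 library, where the list median was 1.28 to 1.34. In CAKI-1 all calls were then lost, with a median of 1.13 to 1.23.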
